A study of Homo sapiens with 8 samples.

Results

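The genes described here encode the subunits of the human proteasome and the proteins that activate, inhibit or assemble it. They were chosen by symbol alone, without use of their values: of the array's transcript clusters with a single platform symbol, 47 genes had a symbol that starts with PSMA, PSMB, PSMC, PSMD, PSME, PSMF or PSMG and a number, and 45 of these encode proteasome proteins. These 45 genes, out of 18417 measured, were sorted by role into 15 core subunits (8 of the alpha ring and 7 of the beta ring), 6 immunoproteasome genes, 14 cap subunits (5 ATPases and 9 others), 7 assembly factors and 3 other regulators. The thymus-specific catalytic subunit PSMB11 was counted with the immunoproteasome genes. PSMC3IP and PSME3IP1 were left out because their products are not subunits, and PSMC5, PSMD7 and PSMD13 are not analysed here. Where a gene had more than 1 cluster, the one with the highest mean was used, which concerned PSMB8, PSMB9, PSMC1 and PSMC6. Clusters were assigned by annotation alone, and their own genomic positions were not checked. The cluster numbers used for PSMC1 and PSMC6 lie outside the range of the other members on chromosome 14. Those of their dimmer clusters lie inside it, so PSMC1 and PSMC6 may have been read at other loci.

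The samples are 8 arrays of total RNA from human multiple myeloma cells. U266/s is the parental line and U266/LR7 its melphalan-resistant derivative, and no label says that a line is 1 clone. Each line was examined in 4 states 12 h after treatment: with a negative control oligonucleotide, with 100 µM melphalan (a DNA-alkylating drug used against myeloma), with 100 nM inhibitors directed at the microRNAs miR-221 and miR-222, and with melphalan and inhibitors together (the combination). Every state has 1 array, so no state was replicated. The transfection tag of both melphalan-alone arrays reads none although the protocol reads as if they had received the control oligonucleotide, so the melphalan and the inhibitor differences may contain that difference as well. Below, values come in pairs, of which the first is the array without inhibitors and the second the array with them, in log2 signal units.

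The proteasome is the protease that degrades most short-lived and misfolded proteins in the cytosol and nucleus. Its barrel-shaped core is built of stacked alpha and beta rings, and the beta subunits PSMB5, PSMB6 and PSMB7 carry the cleaving sites. A cap of ATPases, which unfold the substrate, and of non-ATPase subunits, which bind and remove ubiquitin, sits on the barrel. Interferon induces the alternative catalytic subunits PSMB8, PSMB9 and PSMB10 and the activator subunits PSME1 and PSME2, which favour the making of peptides for MHC class I. Plasma cells secrete large amounts of antibody, and myeloma is treated with proteasome inhibitors such as bortezomib, which binds PSMB5. When proteasome activity falls short, the transcription factor NRF1, encoded by NFE2L1, is known to raise the subunit genes together through antioxidant response elements in their promoters.

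Promoters are shown for the genes with the largest falls after melphalan in U266/s (PSMD5 and PSMD1) and the largest rises there (PSMB10 and PSMG4), and for PSME2, whose promoter holds the same interferon-type letters as PSMB10 and PSMG4. RefSeq promoters of 300 bases, from 250 bases before to 50 after the gene start, were matched for 39 of the 45 genes by gene ID (all but PSMA7, PSMB1, PSMB6, PSMB7, PSMD4 and PSMG3). The windows are GRCh38.p14 chr9:120842873-120843172, minus strand for PSMD5, GRCh38.p14 chr2:231056617-231056916, plus strand for PSMD1, GRCh38.p14 chr16:67936801-67937100, minus strand for PSMB10, GRCh38.p14 chr6:3258697-3258996, plus strand for PSMG4 and GRCh38.p14 chr14:24146561-24146860, minus strand for PSME2. The start used for PSMG4 lies inside the full span of that gene. Each sequence is written 5′ to 3′ along the gene's own strand, and capitals mark matches to one of 4 motifs searched on both strands. These were the antioxidant response element core TGACNNNGC, the interferon-stimulated response element core GAAANNGAAA, the E-box (CACGTG) and the box named after its letters CCAAT. Matches of different motifs overlapped in 0 places in the matched promoters.
PSMD5: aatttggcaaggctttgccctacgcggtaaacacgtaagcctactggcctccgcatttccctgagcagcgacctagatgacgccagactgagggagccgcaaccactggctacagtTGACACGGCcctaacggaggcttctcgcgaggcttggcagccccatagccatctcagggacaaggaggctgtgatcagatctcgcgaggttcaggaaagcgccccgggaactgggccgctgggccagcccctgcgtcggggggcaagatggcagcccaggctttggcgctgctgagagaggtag
PSMD1: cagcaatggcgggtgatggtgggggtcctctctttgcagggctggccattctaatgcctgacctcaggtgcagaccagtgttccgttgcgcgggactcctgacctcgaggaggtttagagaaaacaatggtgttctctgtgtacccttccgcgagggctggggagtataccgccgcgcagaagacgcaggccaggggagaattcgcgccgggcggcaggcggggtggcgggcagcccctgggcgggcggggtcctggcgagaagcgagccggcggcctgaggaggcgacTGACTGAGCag
PSMB10: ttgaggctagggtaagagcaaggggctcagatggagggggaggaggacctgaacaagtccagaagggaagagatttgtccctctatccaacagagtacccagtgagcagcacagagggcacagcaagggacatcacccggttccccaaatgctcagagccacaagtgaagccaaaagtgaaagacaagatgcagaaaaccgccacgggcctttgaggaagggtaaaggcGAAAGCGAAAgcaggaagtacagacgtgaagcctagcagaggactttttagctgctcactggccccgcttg
PSMG4: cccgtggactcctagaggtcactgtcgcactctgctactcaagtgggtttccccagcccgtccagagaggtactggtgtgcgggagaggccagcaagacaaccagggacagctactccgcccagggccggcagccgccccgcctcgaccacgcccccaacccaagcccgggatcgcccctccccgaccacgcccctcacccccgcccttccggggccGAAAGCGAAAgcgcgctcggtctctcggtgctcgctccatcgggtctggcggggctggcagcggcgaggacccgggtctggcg
PSME2: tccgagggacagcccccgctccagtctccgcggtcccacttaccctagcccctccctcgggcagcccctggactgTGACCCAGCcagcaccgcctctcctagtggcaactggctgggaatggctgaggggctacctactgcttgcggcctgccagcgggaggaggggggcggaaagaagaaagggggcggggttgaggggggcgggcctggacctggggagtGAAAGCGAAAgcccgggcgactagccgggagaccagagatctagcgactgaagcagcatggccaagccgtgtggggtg

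The antioxidant response element core occurred in 13 of 39 promoters (33.3%), against 13.3% of all 35116 promoters of this length. It stood in PSMD5 at -134 and in PSMD1 at 40, counted from the gene start to the leftmost base of the match. PSMD12, PSME4 and PSMG2 also held it, and fell with melphalan in U266/s by the test given below. PSMB3, PSMB9, PSMC4, PSMD3, PSMD9, PSME1, PSME2 and PSMG1 held it too and did not pass that test. The interferon-stimulated core occurred in 6 of 39 (15.4%, against 3.57% of all). Of those 6, the promoters of PSMB10, PSME2 and PSMG4 held the identical letters GAAAGCGAAA at -21, -28 and -33, and that of PSME1 held them on the other strand at 6. The others of the 6 were PSMA4, which fell with melphalan in U266/s by the same test, and PSMB4, which did not pass. The E-box was found in 3 promoters (7.69%, against 7.26%) and the CCAAT box in 17 (43.6%, against 34.6%). These are matches of letters only, no binding was measured, and their part in the response was not tested.

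The 45 genes were mostly bright: 42 had a mean signal above the series median of 7.38, and 38 lay above the upper quartile of 8.96. PSMB11, the thymus-specific catalytic subunit, lay at 4.91 to 5.54 and thus under the lower quartile of all genes on every array. PSMA8, a testis-type alpha subunit, lay at 5.52 to 7.79 and PSMG4 at 6.72 to 7.76. The array quartile range was 3.58 to 3.71 log2 units on 6 arrays, but 3.25 and 3.34 on the arrays of U266/s with melphalan, without and with inhibitors. Each main count below is also given after median centring, quantile normalization and cyclic loess. Plasma cell markers (8 of 8 measured) had mean levels of 9.59 to 10.56. The B cell markers had means of 5.34 to 5.74 (3 of 4 measured) and the T cell markers 5.90 to 6.29 (4 of 4 measured), with 2 genes in each list under the lower quartile of all genes on every array.

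**Figure D1:**
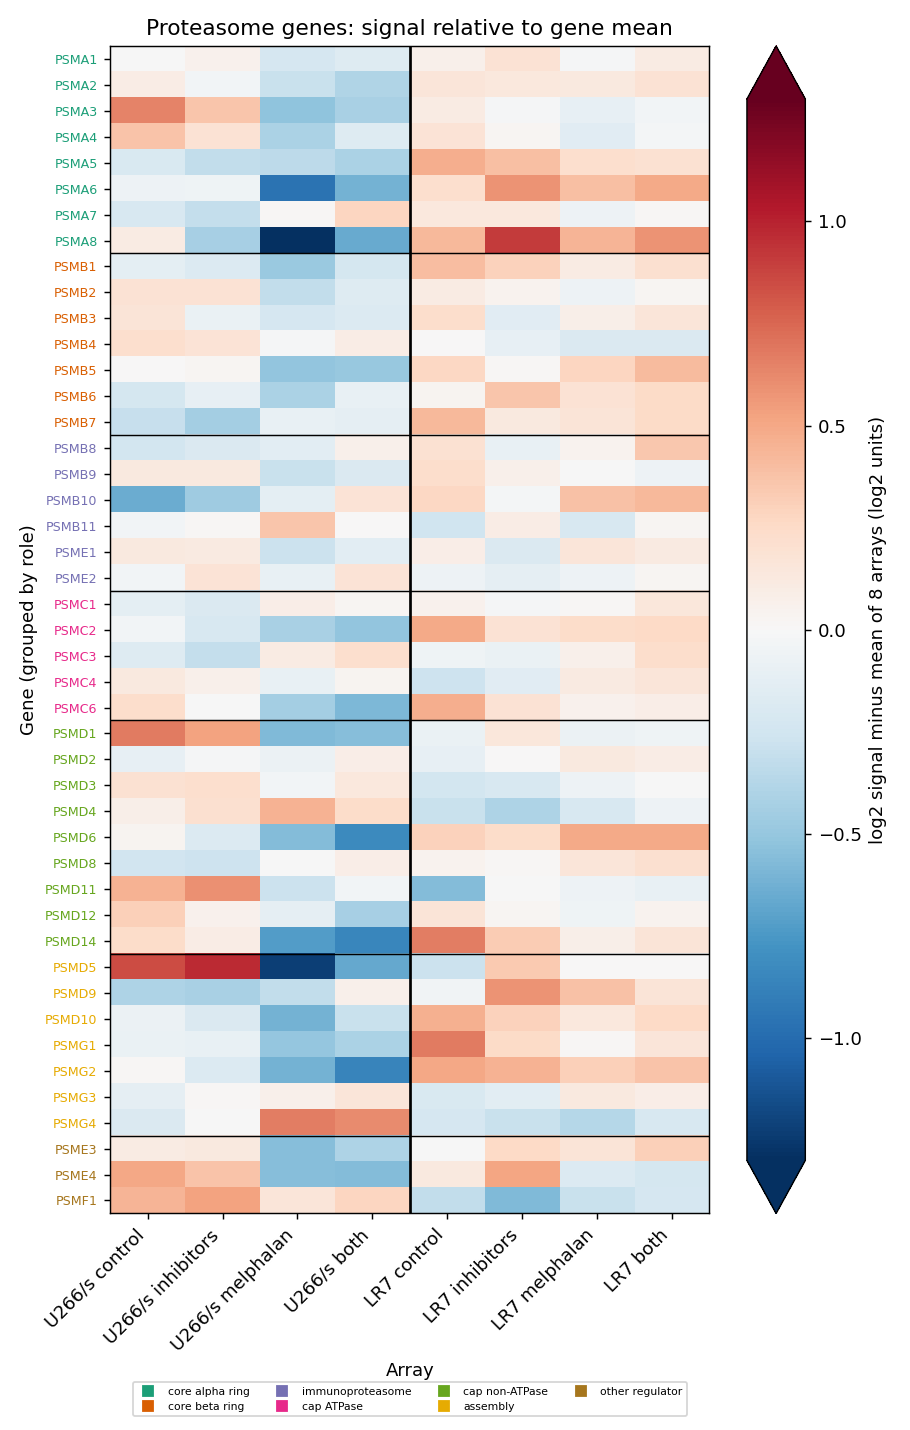
Log2 signal of the 45 proteasome genes (rows, coloured by role) on the 8 arrays (columns), drawn as the difference from each gene's mean over the arrays; red is above and blue below that mean. The U266/s arrays with melphalan are blue for PSMD5, PSMD1, PSME4, PSMA3 and PSMD14 and red for PSMG4.

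After melphalan, 18 of the 45 genes fell and 5 rose in U266/s. The falls were led by the cap assembly chaperone PSMD5 (3.62-fold), the cap scaffold subunit PSMD1 (2.24-fold) and the core activator PSME4 (1.999-fold), and the rises by the assembly factor PSMG4 (1.67-fold) and the immunoproteasome subunit PSMB10 (1.496-fold). The 23 calls are 51.1% of the genes, against 43.4% of all 18417 genes called in this comparison (24.9% lower and 18.4% higher), by limma with Benjamini-Hochberg adjustment at 0.05. The median difference of the 45 genes was -0.27, against 0.075 over all genes. The split of 5 higher and 18 lower became 6 and 17 after median centring, 9 and 14 after quantile normalization and 9 and 11 after cyclic loess, with medians of -0.21, -0.10 and -0.03. The 5 rises and 11 of the 18 falls were called under all 4 scalings, and 7 falls (PSMA2, PSMA4, PSMB2, PSMB5, PSMC2, PSMC6 and PSMD12) were not. The count of 23 dropped to 10 without the U266/s control array and to 15 without the U266/s melphalan array. Members are named in each comparison by the 4 largest called rises and falls and a set of 14 genes fixed with earlier results known; other members named with values were singled out after their values were seen.

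Cell type markers moved with melphalan in U266/s as well. Of the 8 plasma cell markers, 5 fell and 1 rose, where 24.9% of all genes fell and 18.4% rose. The mean level of the list went from 10.19 and 9.90 to 9.59 and 9.65. In U266/LR7, 2 of the 8 plasma cell markers fell, where 3.61% of all genes fell and 3.02% rose. The mean of 5 myeloid markers in U266/s was 5.997 and 6.15 without melphalan and 6.84 and 6.81 with it. In this list 2 of the 5 rose, where 18.4% of all genes did: CD68 by 1.88 ± 0.17 and CD14 by 1.47 ± 0.14. The others, LYZ, CSF1R and ITGAM, had differences of 0.20, -0.05 and 0.26 and did not pass. Of the 5, 1 lay under the lower quartile of all genes on every array. In U266/LR7 the myeloid mean was 5.94 and 6.11 without and 6.20 and 6.32 with melphalan, and 1 of the 5 rose (CD14, 0.55 ± 0.14), a call lost after each other scaling. Stromal and epithelial markers (4 of 4 measured) lay at 7.53 and 7.60 and at 7.32 and 7.43, and EPCAM fell by 1.77 ± 0.20. The others of that list went the other way. COL1A1, COL1A2 and KRT18 had differences of 0.39, 0.32 and 0.29, which did not pass on the deposited scale. In this list 2 genes rose after median centring or quantile normalization and 1 after cyclic loess. The part of these changes in the proteasome values was not tested. In bulk RNA, fewer cells of a type and less RNA per cell cannot be told apart.

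In the alpha ring, which gates the entry to the core, 5 of 8 genes fell and 1 rose. Of all genes, 24.9% fell and 18.4% rose in this comparison. PSMA3 signal in U266/s was 10.26 and 9.98 without melphalan and 9.09 and 9.19 with it. Both melphalan arrays lay below both others, and PSMA3 fell by 0.98 ± 0.15 (standard error, adjusted p = 0.000300). PSMA6, singled out after its values were seen, read 11.01 and 11.02 without melphalan and 10.12 and 10.46 with it, and fell by 0.73 ± 0.13, again with no overlap. In U266/s the pairs without and with melphalan did not overlap in 41 of the 45 genes and in 73.3% of all genes. PSMA4 fell by 0.57 and PSMA2 by 0.37, and neither passed under every scaling. PSMA8 was called lower by 0.84 on average, but its pairs were far apart, with -1.46 without and -0.22 with inhibitors, and it read 5.52 on the array with melphalan alone, under the lower quartile of all genes on that array (6.02). PSMA7 was the exception. It read 9.99 and 9.89 without melphalan and 10.22 and 10.48 with it and rose by 0.41 ± 0.14 (adjusted p = 0.0324), a call lost when any one of 5 arrays was left out: the U266/s control, inhibitor or combination array or either U266/LR7 melphalan array. PSMA1 and PSMA5 had differences of -0.21 and -0.12 and did not pass.

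In the beta ring, 2 of 7 genes fell and none rose on the deposited scale, against 2 and 1 after median centring, 1 and 1 after quantile normalization and 0 and 1 after cyclic loess. On the deposited scale 28.6% of the ring fell, near the 24.9% of all genes. The 2 falls were those of PSMB5, the chymotrypsin-like subunit and the target of bortezomib, and PSMB2, a non-catalytic subunit. PSMB5 read 10.49 and 10.51 without melphalan and 9.96 and 9.99 with it, a close agreement within each pair, and fell by 0.52 ± 0.14 (adjusted p = 0.00988). The PSMB5 difference shrank to -0.24 with quantile normalization and -0.23 with cyclic loess and no longer passed, nor did it pass without the U266/s control (-0.55), inhibitor (-0.50) or melphalan (-0.49) array. PSMB6, the caspase-like subunit, had a difference of -0.09 ± 0.10 and PSMB7, the trypsin-like subunit, of 0.27 ± 0.12 (adjusted p = 0.0837). Neither passed on the deposited scale, but PSMB7 passed as higher after median centring (0.33), quantile normalization (0.41) and cyclic loess (0.48). PSMB1, PSMB3 and PSMB4 had differences between -0.23 and -0.16 and were not called.

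Of the 6 immunoproteasome genes, PSMB10 rose and none fell, and this count was the same under all 4 scalings. The called share was 16.7%, below the 43.4% of all genes. The 6 include the thymus-specific PSMB11, which lay under the lower quartile of all genes on every array. PSMB10, which takes the place of PSMB7 in the immunoproteasome, read 8.66 and 8.85 without melphalan and 9.18 and 9.49 with it. The melphalan arrays were the higher pair in U266/s (0.58 ± 0.16, adjusted p = 0.0143). The call was lost without the U266/s control array (0.50) or the U266/s combination array (0.42). PSMB8, which replaces PSMB5, read 7.89 and 7.93 without melphalan and 7.98 and 8.19 with it and PSMB9, which replaces PSMB6, read 9.61 and 9.61 without melphalan and 9.20 and 9.30 with it. Their differences of 0.18 ± 0.17 and -0.36 ± 0.14 did not pass (adjusted p = 0.406 and 0.0543). The activator subunits PSME1 (-0.33 ± 0.13, adjusted p = 0.0566) and PSME2 (-0.03 ± 0.13, adjusted p = 0.870) also did not pass.

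In the cap, 7 of 14 genes fell and 2 rose. The 5 ATPases had 2 falls and 1 rise, which became 0 and 2 after quantile normalization or cyclic loess, and the 9 non-ATPases had 5 falls and 1 rise, which became 4 and 2. PSMD1, a scaffold subunit of the cap base, read 11.15 and 10.99 without melphalan and 9.90 and 9.92 with it. The pairs were far apart and each was tight, and PSMD1 fell by 1.16 ± 0.14 (adjusted p = 5.12e-05). PSMD11, a lid subunit linked to cap assembly in stem cells, read 12.18 and 12.32 without melphalan and 11.45 and 11.69 with it and fell by 0.68 ± 0.14 (adjusted p = 0.00212). PSMD12, another lid subunit, fell by 0.45 ± 0.15 (adjusted p = 0.0298) but was not called with quantile normalization (-0.13) or cyclic loess (-0.16), nor without any single U266/s array. PSMD14, the deubiquitinase that removes ubiquitin chains from substrates, was singled out after its values were seen. It read 10.57 and 10.42 without melphalan and 9.60 and 9.48 with it and fell by 0.96 ± 0.14. PSMD6 fell by 0.62, and the ATPases PSMC6 and PSMC2 fell by 0.62 and 0.35 on the deposited scale. The dimmer PSMC6 cluster, not used here, read 8.51 and 8.45 in U266/s without melphalan and 7.56 and 7.64 with it. Among the ATPases, PSMC3 rose by 0.40 ± 0.13 (adjusted p = 0.0274), but its call needed each of the 4 U266/s arrays, and among the non-ATPases PSMD8 rose by 0.30. The ubiquitin receptor PSMD4 (0.21), the scaffold PSMD2 (0.06) and the ATPase PSMC1 (0.21) did not pass on the deposited scale. PSMD4 passed as higher after quantile normalization (0.53), PSMD2 after cyclic loess (0.35) and PSMC1 after both (0.45 and 0.49).

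The assembly factors held both extremes of the response. PSMD5, a chaperone of the cap base, read 10.18 and 10.31 without melphalan and 8.11 and 8.67 with it. Both melphalan arrays stood far under the other pair, and PSMD5 fell by 1.85 ± 0.18, the largest fall of the 45 genes on the deposited scale (adjusted p = 1.45e-05). PSMG4, a chaperone of the alpha ring, read 6.91 and 7.08 without melphalan and 7.76 and 7.70 with it and rose by 0.74 ± 0.14 (adjusted p = 0.00142), the largest rise of the 45 on that scale. PSMG2, which pairs with PSMG1 in alpha ring assembly, read 11.88 and 11.69 without melphalan and 11.25 and 11.001 with it and fell by 0.66 ± 0.11. PSMG1 itself had a difference of -0.37 ± 0.16 and did not pass (adjusted p = 0.0773). PSMD9, PSMD10 and PSMG3 had differences of 0.29, -0.32 and 0.16 and were not called on the deposited scale, but PSMG3 passed after quantile normalization (0.48) and cyclic loess (0.47).

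Of the 3 other regulators, both alternative activators fell, where 24.9% of all genes fell. PSME4, a large activator linked to histone degradation, read 10.35 and 10.22 without melphalan and 9.30 and 9.28 with it, and fell by 0.9996 ± 0.15 (adjusted p = 0.000362). PSME3, the nuclear activator, read 12.50 and 12.52 without melphalan and 11.84 and 11.99 with it, and fell by 0.60 ± 0.10 (adjusted p = 0.000622). PSMF1, a proteasome inhibitor, had a difference of -0.27 ± 0.13 that did not pass (adjusted p = 0.108). The calls of PSMD5, PSMD1, PSME4, PSMA3, PSMD11, PSME3 and PSMG4 were kept under every scaling and without any single array.

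**Figure D2:**
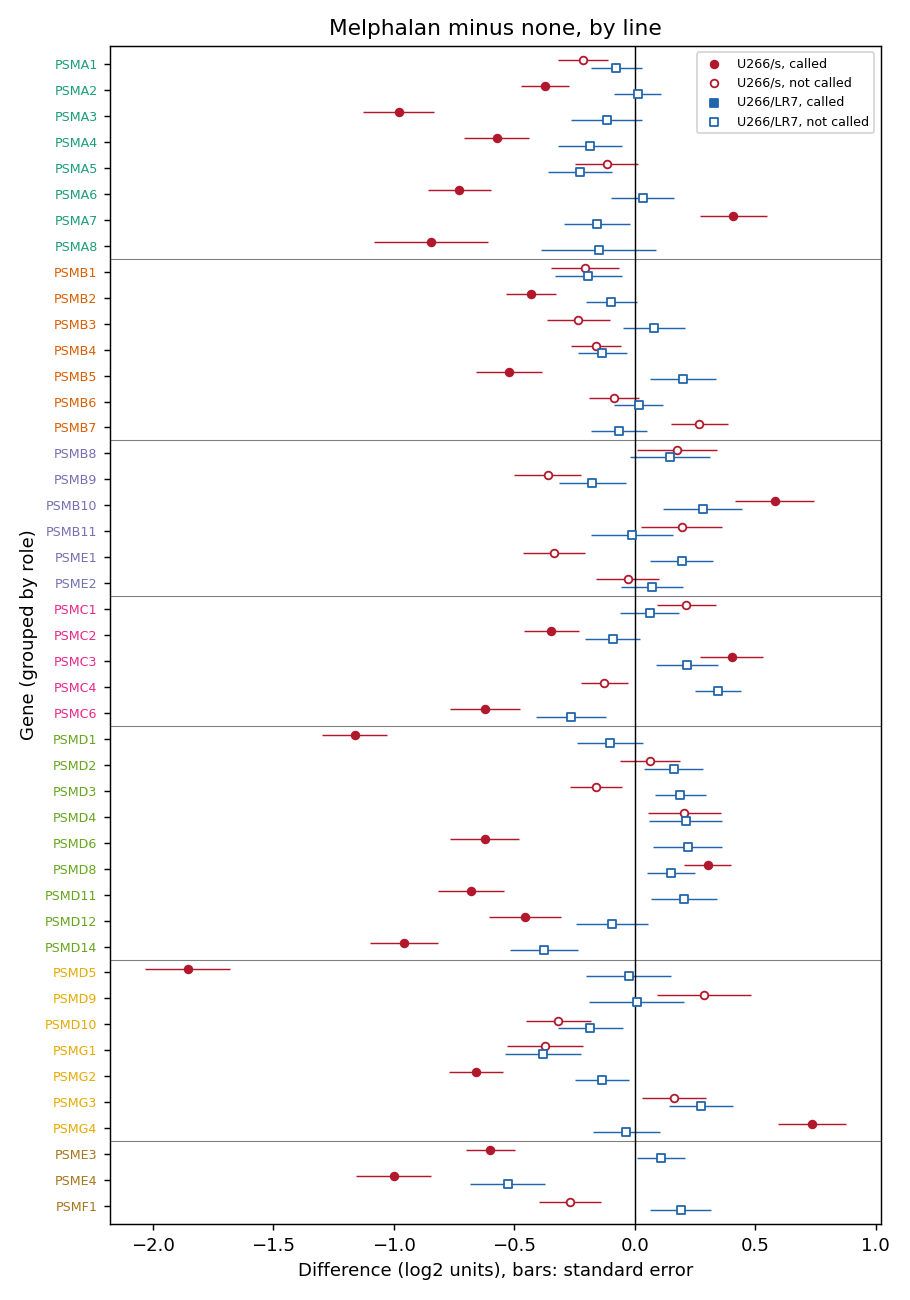
Difference between arrays with and without melphalan (x axis, log2 units; bars are standard errors) for each of the 45 genes (y axis, coloured by role) in U266/s (red circles) and U266/LR7 (blue squares), with filled symbols for differences that passed the adjusted threshold. In U266/s, 23 symbols are filled and reach from -1.85 for PSMD5 to 0.74 for PSMG4, while no U266/LR7 symbol is filled.

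In U266/LR7 none of the 45 genes passed after melphalan, in a comparison in which 6.62% of all genes did (3.02% higher and 3.61% lower). By limma, 4 of the 45 genes had an unadjusted p under 0.05, against 3703 of all 18417 genes. The median difference of the 45 genes was -0.01, against 0.05 over all genes. PSME4 had the largest difference. It read 9.98 and 10.36 without melphalan and 9.67 and 9.62 with it, a difference of -0.53 ± 0.15 (adjusted p = 0.0679), and PSMC4, a cap ATPase singled out after its values were seen, read 12.24 and 12.36 without melphalan and 12.62 and 12.67 with it (0.35 ± 0.10, adjusted p = 0.0555). PSMG1 (-0.38) and PSMD14 (-0.38) were the other 2. PSME4 passed with quantile normalization or cyclic loess, among genes above the median signal and without the U266/LR7 control array. PSMC4 passed with quantile normalization and among genes above the median signal, and PSMG1 without the U266/LR7 inhibitor array.

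For 5 of the genes called in U266/s (PSMD5, PSMD1, PSMG4, PSMB5 and PSMB10) the U266/LR7 values follow. PSMD5 there read 9.05 and 9.68 without melphalan and 9.34 and 9.34 with it, a difference of -0.02 ± 0.18. The pair without melphalan was 0.63 apart and enclosed the other. PSMD1 read 10.38 and 10.62 without melphalan and 10.39 and 10.41 with it, with -0.10. PSMG4 read 6.87 and 6.80 without melphalan and 6.72 and 6.88 with it, with -0.03, and all 4 arrays lay below the U266/s melphalan pair. PSMB5 read 10.76 and 10.49 without melphalan and 10.76 and 10.89 with it, and PSMB10 read 9.57 and 9.28 without melphalan and 9.69 and 9.73 with it. Their differences of 0.20 and 0.28 did not pass.

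Whether the response differed between the lines was tested directly as the melphalan by line term, written as the U266/LR7 response minus the U266/s response. It passed for 11 genes, 10 higher and 1 lower, or 24.4% of the 45 against 23.9% of all genes (17.9% higher and 5.99% lower), a share close to the background. The 4 largest were PSMD5 (1.83 ± 0.25, adjusted p = 0.000499), PSMD1 (1.06 ± 0.19, adjusted p = 0.00226), PSMD11 (0.88 ± 0.19, adjusted p = 0.00665) and PSMA3 (0.86 ± 0.21, adjusted p = 0.0112). PSMB5 (0.72 ± 0.19, adjusted p = 0.0187) and PSME3 (0.71 ± 0.14, adjusted p = 0.00407) also passed, as did PSMA6, PSMC4, PSMD6 and PSMG2. PSMG4 was the one gene called lower on the deposited scale (-0.77 ± 0.20, adjusted p = 0.0152), and after each other scaling PSMA7 was called lower as well (-0.66, -0.88 and -0.93). PSME4 (0.47 ± 0.22, adjusted p = 0.146) and PSMB10 (-0.30 ± 0.23, adjusted p = 0.388) did not pass, so their responses were not shown to differ between the lines.

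The direction of that split depended on the scaling. It was 8 and 2 after median centring, 5 and 3 after quantile normalization and 4 and 4 after cyclic loess, and the median of the 45 genes went from 0.26 to 0.16, 0.01 and -0.001. Median centring also moved the median of all genes to -0.11. PSMD5, PSMD1, PSMD11, PSME3 and PSMG4 passed under all 4 scalings. PSMA3 and PSMB5 did not, with 0.49 and 0.44 after quantile normalization and 0.49 and 0.38 after cyclic loess. The count of 11 fell to 3 without the U266/s control array and to 6 without the U266/s melphalan, U266/LR7 melphalan or U266/LR7 combination array. PSMD5, PSMD1 and PSME3 passed without any single array, whereas PSMD11, PSMA3, PSMB5 and PSMG4 each lost the call without the U266/s control array and at least 1 other.

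**Figure D3:**
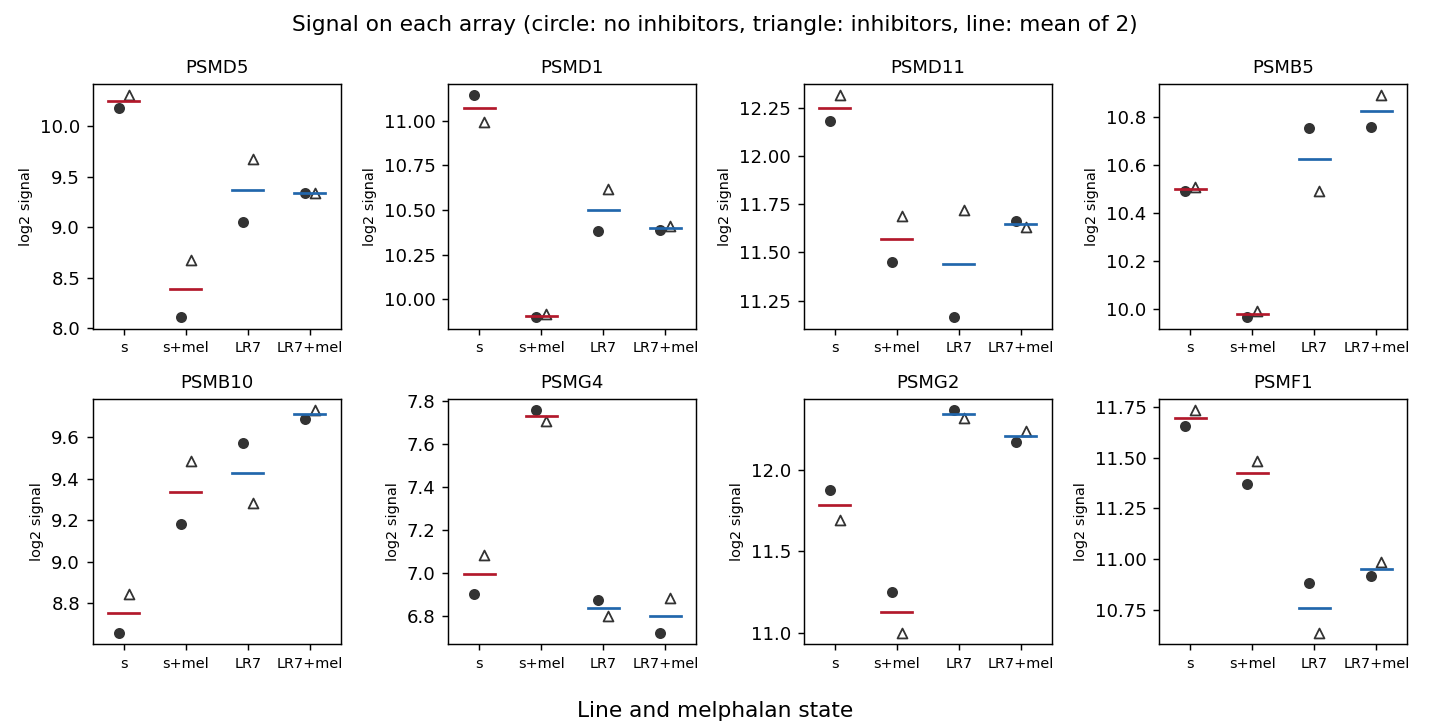
Log2 signal (y axis, scaled per gene) of 8 genes on each array by line and melphalan state (x axis: s is U266/s, mel is melphalan), with circles for arrays without inhibitors, triangles for arrays with them and a line at the mean of the 2. PSMD5 lies at 10.18 and 10.31 in U266/s and at 8.11 and 8.67 after melphalan, while its 4 U266/LR7 values lie between 9.05 and 9.68.

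The lines also differed before any melphalan. Without the drug, 14 of the 45 genes were higher and 8 lower in U266/LR7, or 48.9% against 34.7% of all genes (16.9% higher and 17.8% lower), with a median of 0.10 against -0.04. The genes higher in U266/LR7 sat in the core and among the assembly factors: 4 alpha ring, 3 beta ring and 4 assembly genes, with PSMB10, PSMC2 and PSMD8. The genes lower there were led by the inhibitor PSMF1 and the assembly factor PSMD5, followed by PSMD11. The cap subunits PSMD1, PSMD3, PSMD4 and PSMC4 and the alpha ring gene PSMA3 were lower as well. The split was 14 and 8, 13 and 9, and 14 and 9 after median centring, quantile normalization and cyclic loess, and all calls but that of PSMD8 passed under every scaling. The count of 22 fell to 14, 10 and 9 without the U266/LR7 control, the U266/s control and the U266/s inhibitor array.

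PSMF1 without melphalan read 11.65 and 11.74 in U266/s against 10.88 and 10.64 in U266/LR7, a difference of -0.94 ± 0.13 (adjusted p = 0.000133). PSMD11 read 12.18 and 12.32 in U266/s against 11.16 and 11.72 in U266/LR7 (-0.81 ± 0.14, adjusted p = 0.000658) and PSMD5 read 10.18 and 10.31 in U266/s against 9.05 and 9.68 in U266/LR7 (-0.88 ± 0.18, adjusted p = 0.00202). For all 3 the U266/LR7 pair lay below the U266/s pair, and these calls were kept without any single array. Without melphalan the pairs of the lines were clear of each other in 36 of the 45 genes and in 62.9% of all genes. PSMD1 was lower as well (-0.57 ± 0.14, adjusted p = 0.00613), a call lost without the U266/s control array (-0.45).

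Among the genes higher in the resistant line, PSMA5, an alpha ring subunit, read 9.50 and 9.37 in U266/s against 10.16 and 10.08 in U266/LR7 (0.69 ± 0.13, adjusted p = 0.00153). PSMB7 read 11.55 and 11.41 in U266/s against 12.27 and 11.98 in U266/LR7 (0.65 ± 0.12, adjusted p = 0.00104), and its fellow catalytic gene PSMB6 differed by 0.37 ± 0.10 (adjusted p = 0.0146), whereas PSMB5 did not pass (0.13 ± 0.14, adjusted p = 0.556). PSMB10 read 8.66 and 8.85 in U266/s against 9.57 and 9.28 in U266/LR7 (0.67 ± 0.16, adjusted p = 0.00698). PSMA8 (0.83), PSMD9 (0.68) and PSMG1 (0.55) were called too. PSMA5 and PSMB7 kept their calls without any single array, whereas PSMB10, PSMB6 and PSMG1 lost theirs without the U266/s control array, among others, and PSMA8 and PSMD9 without either inhibitor array. PSMB8, PSMB9, PSMD12, PSME1, PSME2, PSME3 and PSME4 had differences between -0.18 and 0.26 and did not pass.

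With melphalan, 20 of the 45 genes were higher and 3 lower in U266/LR7, or 51.1% against 51.7% of all genes (27.7% higher and 24.0% lower), with a median of 0.32 against -0.08. The split was 17 and 4 after median centring, 12 and 6 after quantile normalization and 12 and 10 after cyclic loess, with medians of 0.25, 0.06 and 0.02. PSMA6 (1.23 ± 0.13, adjusted p = 1.71e-05), PSMD6 (1.18 ± 0.14, adjusted p = 4.48e-05) and PSMG2 (1.08 ± 0.11, adjusted p = 1.61e-05) were among the genes higher in U266/LR7. PSMA8 read 5.52 and 6.22 in U266/s against 7.33 and 7.46 in U266/LR7 (1.52 ± 0.24, adjusted p = 0.000272), but its U266/s melphalan value lay under the lower quartile named above, so the size of this difference is limited by low signal. PSMA6 with melphalan read 10.12 and 10.46 in U266/s against 11.47 and 11.57 in U266/LR7, and PSMG2 read 11.25 and 11.001 in U266/s against 12.17 and 12.24 in U266/LR7, so both pairs were clear of each other. With melphalan this held for 36 of the 45 genes and for 78.8% of all genes. PSMB5 read 9.96 and 9.99 in U266/s against 10.76 and 10.89 in U266/LR7 (0.85 ± 0.14, adjusted p = 0.000354) and PSME3 was higher by 0.72 ± 0.10 (adjusted p = 0.000123). The calls of PSMA6, PSMD6, PSMG2, PSMB5, PSME3 and PSMA8 were kept under every scaling and without any single array.

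The 3 lower genes with melphalan were PSMG4, PSMF1 and PSMD4, and they passed under all 4 scalings. PSMG4 read 7.76 and 7.70 in U266/s against 6.72 and 6.88 in U266/LR7 (-0.93 ± 0.14, adjusted p = 0.000216). PSMF1 differed by -0.48 ± 0.13 (adjusted p = 0.00898) and PSMD4 by -0.48 ± 0.15 (adjusted p = 0.0205), and both calls were lost without the U266/LR7 melphalan array. That of PSMF1 was also lost without the U266/s combination array, and that of PSMD4 without the U266/LR7 combination or the U266/s melphalan array. PSMB6 (0.47), PSMG1 (0.54), PSMB7 (0.31) and PSME1 (0.35) were called higher on the deposited scale, but PSMG1, PSMB7 and PSME1 were not called after quantile normalization or cyclic loess, nor PSMB6 without the U266/LR7 melphalan array. PSMB8 (0.23), PSMB9 (0.21), PSMB10 (0.38), PSMD11 (0.08), PSMD12 (0.27), PSME2 (-0.06) and PSME4 (0.36) did not pass. The count of 23 fell to 15 without either U266/LR7 melphalan array.

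In 12 genes (26.7%) the line difference was called in the same direction in both melphalan states, against 22.8% of all genes. In 3 genes (6.67%), PSMD5, PSMD1 and PSMA3, it was called in opposite directions, against 2.45% of all genes. PSMD5 was lower in U266/LR7 by -0.88 without melphalan and higher by 0.95 ± 0.18 with it (adjusted p = 0.000924). PSMD1 was lower by -0.57 and higher by 0.49 ± 0.14 (adjusted p = 0.0106), and PSMA3 lower by -0.46 and higher by 0.40 ± 0.15 (adjusted p = 0.0393). The comparisons without and with melphalan use separate arrays. The calls of PSMD1 and PSMA3 with melphalan did not pass under every scaling, whereas that of PSMD5 did.

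**Figure D4:**
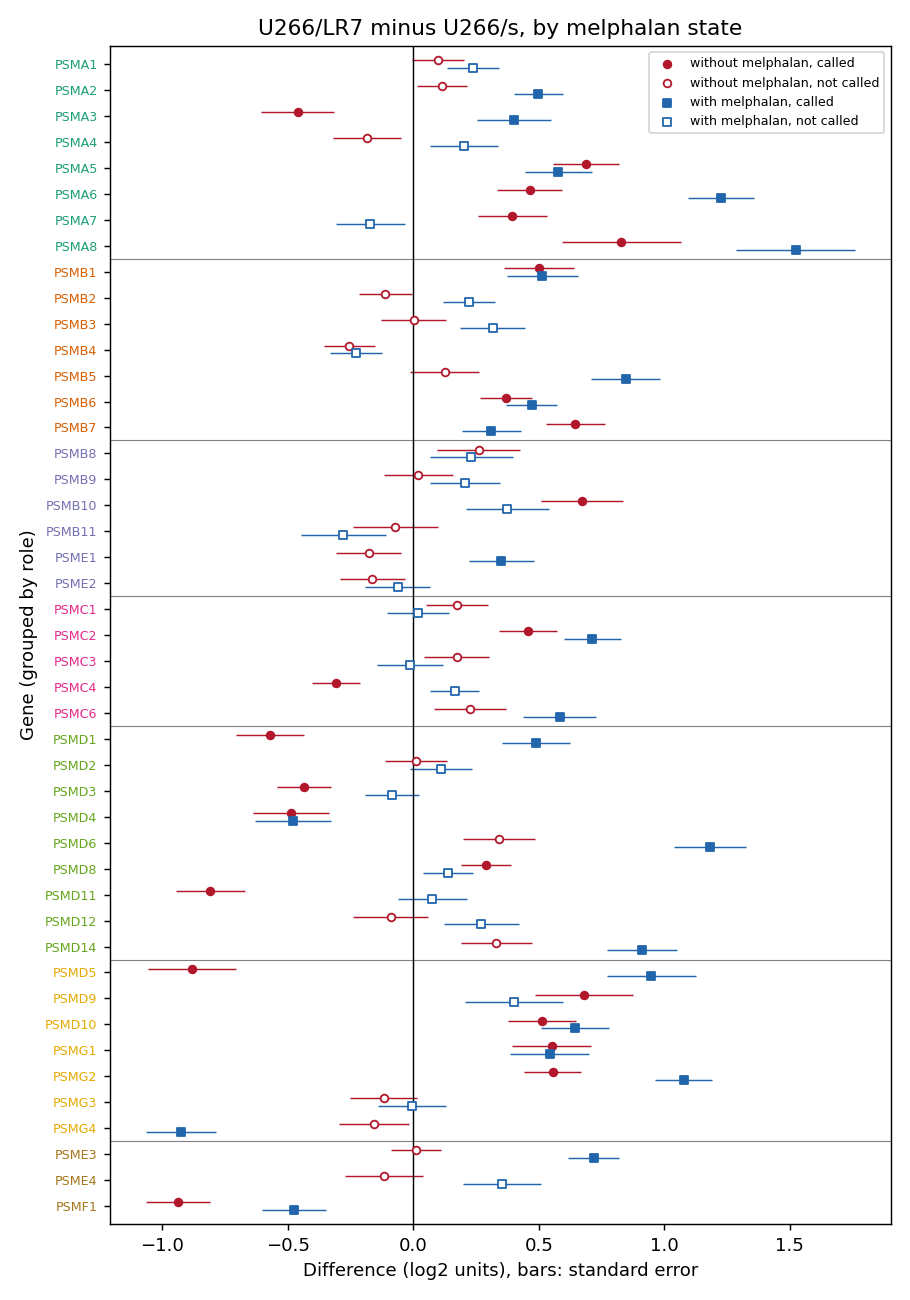
Difference between U266/LR7 and U266/s (x axis, log2 units; bars are standard errors) for each of the 45 genes (y axis, coloured by role), without melphalan (red circles) and with melphalan (blue squares), with filled symbols for differences that passed. PSMD5 lies at -0.88 without and 0.95 with melphalan, and PSMF1 lies left of 0 in both states.

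The inhibitors directed at miR-221 and miR-222 moved none of the 45 genes past the threshold. After adjustment, 8 of all genes passed (0.0434%, with 0.0271% higher and 0.0163% lower). By limma, 4 of the 45 genes and 1161 of all 18417 genes had an unadjusted p under 0.05. The median over the 45 genes was 0.03, against 0.006 over all genes. The 4 were PSMD5 (0.33 ± 0.12, adjusted p = 0.697), PSMD11 (0.23 ± 0.10), PSMA6 (0.20 ± 0.09) and PSMB6 (0.20 ± 0.07). For PSMD5 the array with inhibitors was the higher one in both U266/s pairs and in the U266/LR7 pair without melphalan, while the U266/LR7 pair with melphalan read 9.34 and 9.34. As single-array differences, which carry no test, the medians of the 45 genes were -0.03 and 0.10 in U266/s without and with melphalan, and -0.06 and 0.08 in U266/LR7. Past 1.5-fold stood 0 of the 45 genes in U266/s without melphalan and 1 with it (PSMA8), and 2 (PSMD9 and PSMD5) and 0 in U266/LR7. The shares of all genes past 1.5-fold in these pairs were 1.78%, 4.36%, 5.19% and 0.939%.

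The span of a gene on the chromosome, taken from RefSeq on GRCh38.p14, is set beside its response in U266/s. Spans were a median of 27.9 kb (9.37 to 116) for the 18 genes that fell, 7.67 kb for the 5 that rose and 10.2 kb for the 22 not called. Over all protein-coding genes these medians stood in the same order, at 57.8, 11.9 and 22.9 kb. Under 10 kb, 1 of 16 genes fell and 4 rose, and 1302 of all 4233 protein-coding genes of that class rose. Between 10 and 30 kb, 9 of 18 fell, and over 30 kb, 8 of 11 fell and none rose. Among all protein-coding genes tested the shares that fell were 7.32%, 19.2% and 41.7% in the same classes. In U266/LR7 none of the 45 genes was called, while of all protein-coding genes 608 of the 7963 over 30 kb fell and 181 of the 4233 under 10 kb rose. PSMD5 (chr9:120816053-120842922), PSMD1 (chr2:231056867-231172827) and PSME4 (chr2:53864069-53970993) span 26.9, 116 and 107 kb. PSMB10 (chr16:67934506-67936850) and PSMG4 (chr6:3254404-3268049) span 2.35 and 13.6 kb. The part of span in the response was not tested.

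**Figure D5:**
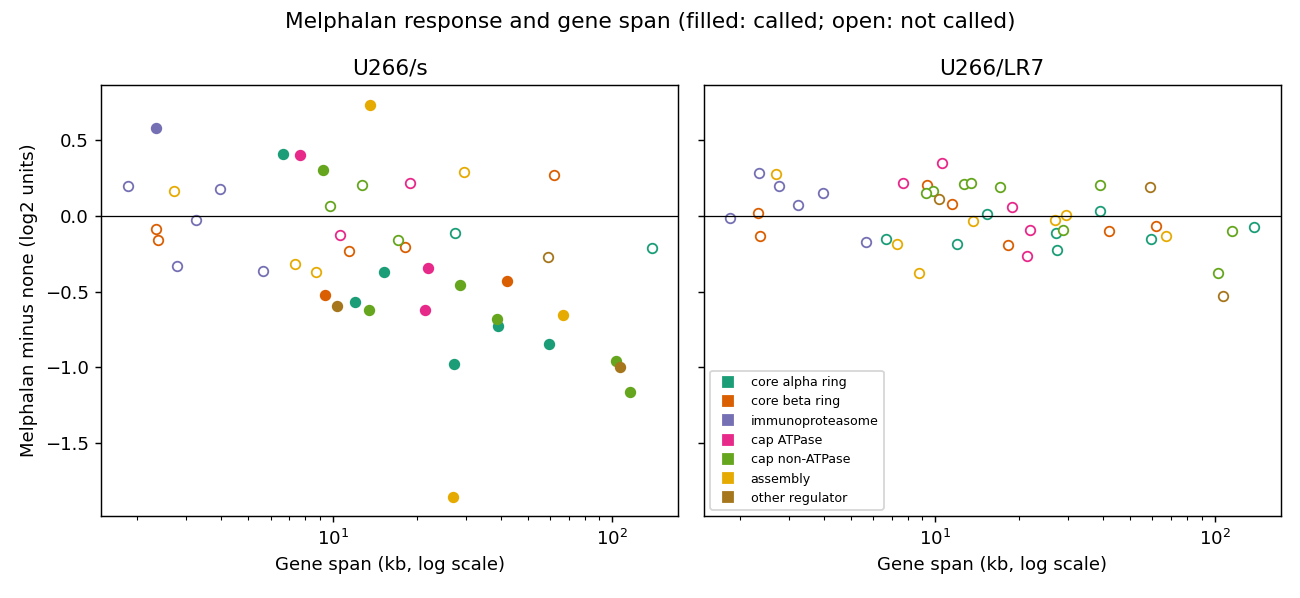
Difference between arrays with and without melphalan (y axis, log2 units) against the gene span (x axis, kb on a log scale) of the 45 genes in U266/s (left) and U266/LR7 (right), coloured by role, with filled points for differences that passed. In U266/s, 8 of the 11 genes over 30 kb are filled and below 0, and in U266/LR7 no point is filled.

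Proteasome proteins with other names were looked at beside the 45 genes. All 13 on the list were measured, and in U266/s with melphalan 8 fell and 1 (SEM1, 0.53 ± 0.16) rose, where 24.9% of all genes fell and 18.4% rose. The median of the 13 was -0.69, against -0.63 after median centring, -0.42 after quantile normalization and -0.41 after cyclic loess, and after each of these 7 fell and 2 rose. AKIRIN2, which carries proteasomes into the nucleus, read 10.38 and 10.27 without melphalan and 9.14 and 9.21 with it and fell by 1.15 ± 0.13 (adjusted p = 4.53e-05). The cap-bound deubiquitinases UCHL5 and USP14 fell by 0.96 ± 0.15 and 0.88 ± 0.13. ECPAS, an adaptor protein of the proteasome, fell by 0.73 ± 0.14. In U266/LR7 the list had 1 rise, ZFAND2A (0.88 ± 0.15, adjusted p = 0.00550), a stress-induced cap partner, and no fall. The melphalan by line term passed for 4 of the 13 on the deposited scale, where 23.9% of all genes did. All 4 were higher, and the split became 4 higher and 1 lower after median centring and 3 and 1 after quantile normalization or cyclic loess. Among the 4 were AKIRIN2 (1.15 ± 0.19, adjusted p = 0.00120) and USP14 (0.97 ± 0.19, adjusted p = 0.00351).

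Of the genes around NRF1, 13 of 15 were measured, and 4 rose and 3 fell in U266/s with melphalan (5 and 2 after quantile normalization or cyclic loess). Of all genes, 18.4% rose and 24.9% fell there. NFE2L1 rose by 0.36 ± 0.12 in U266/s (adjusted p = 0.0324) and by 0.47 ± 0.12 in U266/LR7 (adjusted p = 0.0414). NGLY1, the glycanase that NRF1 needs to become active, fell by 1.24 ± 0.15 in U266/s and by 0.62 ± 0.15 in U266/LR7 (adjusted p = 8.31e-05 and 0.0394). NFE2L2, which encodes the related factor NRF2, read 10.50 and 10.21 without melphalan and 8.24 and 8.43 with it in U266/s, and fell by 2.02 ± 0.18 (adjusted p = 9.55e-06). In U266/LR7 it read 9.07 and 9.54 without melphalan and 9.60 and 9.60 with it, and its response differed between the lines by 2.31 ± 0.25 (adjusted p = 0.000181). MAFG, a small MAF partner of both factors, rose by 1.01 ± 0.14 and 0.62 ± 0.14 (adjusted p = 0.000211 and 0.0268). In U266/LR7, 3 genes of this list rose and 3 fell, where 3.02% of all genes rose and 3.61% fell, and the rises were 2 after median centring or cyclic loess.

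Ubiquitin and shuttle factors had 8 of 12 measured, with 1 rise (UBB, a ubiquitin gene, 0.47 ± 0.11) and 3 falls in U266/s with melphalan. Of all genes, 18.4% rose and 24.9% fell in that comparison. UBA6, an alternative ubiquitin-activating enzyme, fell by 1.99 ± 0.22 (adjusted p = 3.68e-05), and its response differed between the lines by 1.89 ± 0.31 (adjusted p = 0.00138). The split of 1 and 3 became 2 and 2 after quantile normalization and 3 and 2 after cyclic loess. Of the MHC class I presentation genes, 9 of 15 were measured, with 1 rise and 3 falls in U266/s (2 falls after each other scaling). The called share of this list was 44.4%, close to the 43.4% of all genes. ERAP1, which trims peptides in the endoplasmic reticulum, fell by 1.02 ± 0.14 (adjusted p = 0.000139), while B2M, the class I light chain, rose by 0.54 ± 0.13 (adjusted p = 0.00595). TAP1, which shares the interferon-induced locus of PSMB9, had a difference of -0.09 ± 0.13.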

How the data were processed

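RNA of 8 arrays was measured, 1 per condition. The log2 values used here were deposited by the authors, who made them with Affymetrix Expression Console and RMA per the submitters' processing notes. The software version was not given in the sources used here. Of 33297 transcript clusters in the table, 19460 have 1 symbol in the platform annotation, 1754 have several and 12083 have none there, and 19429 matched a RefSeq gene by gene ID. A gene with several clusters (769 genes) was represented by the brightest, which left 18417 genes. The members and gene lists were chosen with earlier results of these data known.

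All genes were fitted together with limma 3.58.1 (R 4.3.3), with terms for line, melphalan, melphalan by line and inhibitors over all 8 arrays. Empirical Bayes variances had an intensity trend, and 3 residual degrees of freedom remained. The median residual SD was 0.139. P-values were adjusted over the 18417 genes by Benjamini-Hochberg, with a threshold of 0.05. Within a line and melphalan state, the array with and the array without inhibitors stand in for replicates after the shared inhibitor term is removed. No label says whether the arrays were separate cultures, and the p-values then reflect array-to-array spread, which may be technical. That spread also holds any inhibitor effect that differs between the lines or melphalan states, and part of any transfection difference. The number of arrays limits the precision.

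Members with a value in each comparison were the 4 largest called rises and falls and, always, PSMB5, PSMB6, PSMB7, PSMB8, PSMB9, PSMB10, PSMD11, PSMD12, PSME1, PSME2, PSME3, PSME4, PSMF1 and PSMG1. Of each related list the 4 largest folds could be named, and others named were chosen after their values were seen. Motifs and spans were read from RefSeq tables (GRCh38.p14). Alternatives changed the scaling, the genes tested, the variance model, the choice of cluster, the terms of the model and the arrays included. The fitting was tested on simulated data.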

Additional observations from a re-analysis of the deposited data

Results flagged for a closer look

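The response to melphalan differed between the lines, by limma's test of the difference itself with adjustment over all genes, for 7 of the genes named by rule. The U266/LR7 response minus the U266/s response, in log2 units, was 1.83 for the cap chaperone PSMD5, 1.06 for the cap scaffold PSMD1, 0.88 for the lid subunit PSMD11, 0.86 for the alpha ring subunit PSMA3, 0.72 for the catalytic subunit PSMB5 and 0.71 for the nuclear activator PSME3. It was -0.77 for the alpha ring chaperone PSMG4. The first 6 fell in U266/s and PSMG4 rose there, and none of the 7 passed in U266/LR7. PSMA3 and PSMB5 did not pass after quantile normalization or cyclic loess.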

How the results depend on the processing

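No paired analysis was possible because every group has 1 array and the labels give no replicate numbers. Of the 43 results for single named genes, 12 kept direction and call under every alternative run. Over all alternatives, 654 gene values kept direction and call, 100 kept the direction but lost the call and 1 reversed. That one was PSMD5 between the lines without melphalan, at 0.034 in the additive fit, which has 1 line term and so averages both melphalan states. The additive fit likewise has 1 melphalan term for both lines and called 1 of the 45 genes for it, against 23 in U266/s and 0 in U266/LR7. In U266/LR7 the count of 0 became 1 with cyclic loess, 2 with quantile normalization and 2 among genes above the median signal. Leaving out 1 array at a time gave 9 to 21 calls for the lines without melphalan, 15 to 26 with melphalan, 10 to 29 for melphalan in U266/s, 0 to 1 in U266/LR7, 3 to 13 for melphalan by line and 0 for the inhibitors, for which 4 genes had an unadjusted p under 0.05 by limma. Of all 18417 genes, 1161 had an unadjusted p under 0.05 by limma for the inhibitors on the deposited scale. PSMB11 is not readable as a level, since it lay under the lower quartile of all genes on every array.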
